A study of Homo sapiens with 4 samples.

Results

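Adherens junctions were examined through 10 genes, namely the classical cadherins CDH1 and CDH2, the catenins CTNNB1, CTNND1 and CTNNA1, the actin linkers VCL, ACTN1 and ACTN4, and the scaffold proteins TJP1 and IQGAP1. They were chosen by name for their known place at cell-cell junctions and matched on the gene symbol that the peak annotation carries, and they are 10 of 17829 genes with at least 1 merged peak in the series. RIP-seq was used to measure the RNA pulled down with an anti-NSUN2 antibody, which targets an RNA methyltransferase that places a methyl group on cytosine. The cells were wild-type PANC-1, an established line from a human pancreatic ductal adenocarcinoma. One group received sodium lactate at 30 mM for 24 h, and the other received ddH2O as the vehicle. Each group had 1 immunoprecipitation (IP) library and 1 input library of lysate RNA taken before the pull-down, so no value below has a replicate error.

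Adherens junctions hold epithelial cells together through cadherins, whose outer parts bind the cadherins of the neighbouring cell. Inside the cell, beta-catenin and p120-catenin bind the cadherin tail, and alpha-catenin joins that complex to actin filaments with the help of vinculin and alpha-actinin. Beta-catenin also acts in the nucleus as a partner of transcription factors, and loss of cadherin contacts is a familiar feature of carcinoma cells that become motile.

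A peak is a stretch in which the authors' peak caller found more IP than input reads, and its fold is the enrichment of IP over input. The lactate IP list held 97 peaks on 8 of the 10 genes, and the ddH2O IP list held 142 peaks on all 10. The whole lactate list was shorter, with 48104 peaks against 95785, and the 10 genes took 0.202% of the lactate list and 0.148% of the ddH2O list. In the lactate list 76 peaks lay in introns, 16 in exons and 5 in 3' UTRs. In the ddH2O list 93 lay in introns, 31 in exons, 16 in 3' UTRs and 2 in 5' UTRs. Introns thus took 78.4% of the lactate peaks (95% Wilson interval 69.2 to 85.4) and 65.5% of the ddH2O peaks (57.4 to 72.8). Over all protein-coding genes the intron share was 61.5% with lactate and 61.2% with ddH2O. The 3' UTR share of these genes was 5.15% with lactate (2.22 to 11.5), against 18.1% over all protein-coding genes. With ddH2O it was 11.3% (7.06 to 17.5), against 15.8%. These intervals, and all those below, cover counting error only.

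**Figure D1:**
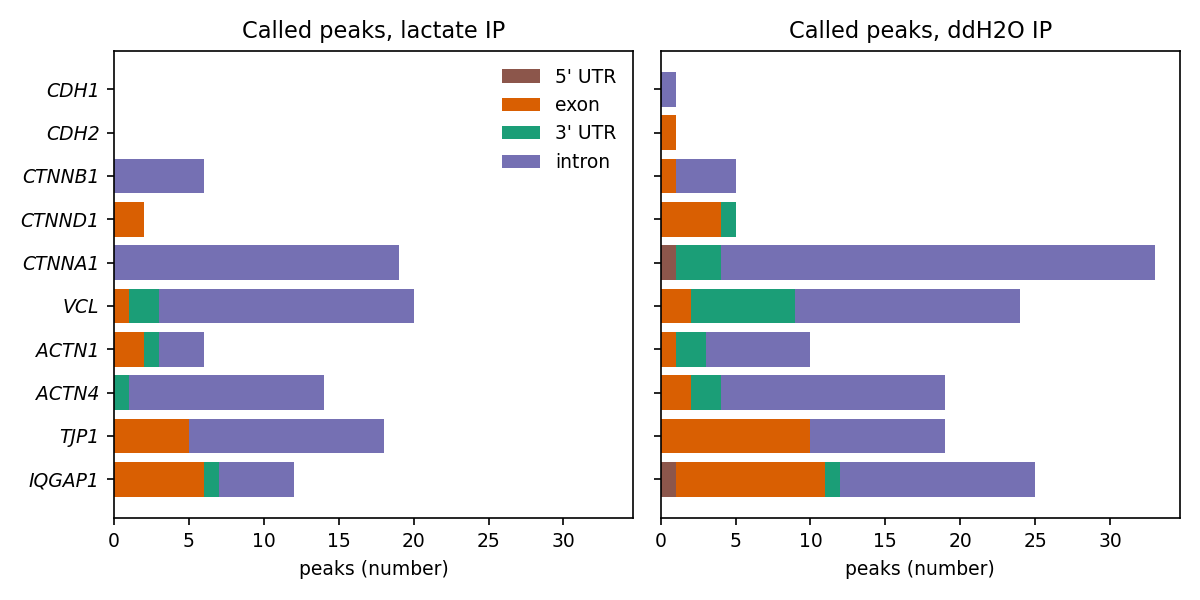
Number of called peaks on each junction gene in the lactate IP (left) and the ddH2O IP (right), with the bars divided by the annotated region of the peak. CTNNA1 carried the most peaks in the ddH2O IP, 33, and VCL the most in the lactate IP, 20, while CDH1 and CDH2 had none in the lactate IP.

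Not all of these peaks were strong. The deposited q-value was below 0.05 for 56 peaks with lactate, or 57.7% (47.8 to 67.1), and for 69 with ddH2O, or 48.6% (40.5 to 56.7). Over all protein-coding genes the shares were 44.6% and 50.9%. The lists overlapped in part. On the same gene, 54.6% of the lactate peaks (53 in number) shared at least 1 base with a ddH2O peak, while 35.9% of those with ddH2O (51) shared a base with a lactate peak. Over all protein-coding genes 58.0% of the lactate peaks and 29.7% of the ddH2O peaks did so. The region is that of a single transcript, and 13 of the 21 peaks labelled 3' UTR lay more than 5 kb from the annotated end of the gene.

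The authors merged both lists and counted the reads of each IP library in a window of 2000 bases around each merged peak. The 10 genes had 186 merged peaks, of which 53 were called in both lists, 43 with lactate alone and 90 with ddH2O alone. These are 28.5%, 23.1% and 48.4%, where 22.6%, 18.0% and 59.4% of all 116484 merged peaks fell into the same classes. Window reads were recovered from the deposited normalized densities, in normalized reads per kb. When the windows on MT-RNR2 and on MALAT1 were set aside, the lactate IP held 1945000 reads and the ddH2O IP 3536821, so that an equal share of the library corresponds to 1.82 times more reads with ddH2O. Those windows took 80.1% of the lactate reads and 63.0% of the ddH2O reads, and with them the sums were 9756054 and 9553835. With these full sums every log2 ratio by library sums fell by 0.89. Directions and intervals by library sums below thus hold for the sums without MT-RNR2 and MALAT1. The median window of the junction genes held 8 reads with lactate and 9 with ddH2O, and 82 of the 186 had at least 20 reads over both libraries.

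Among these 82 windows, 18 were more than 2-fold denser with lactate, or 22.0%, where 7.65% of all 37925 windows with at least 20 reads passed the same fold. A further 10, or 12.2%, were more than 2-fold less dense with lactate, where 18.6% of all such windows were. Some of these windows overlap, and with each read counted once 14 higher and 5 lower windows were left. Scaling the reads by the library sums instead gave 30 windows higher and 4 lower, against 17% and 8.77% of all windows. By the full sums 12 were higher and 23 lower, or 14.6% and 28.0%, beside 3.94% and 37.9% of all windows. The median log2 ratio of lactate over ddH2O over all such windows was -0.20 in the densities and 0.13 after library-sum scaling, and over the 82 windows it was 0.26 and 0.58. Higher windows made up 64.3% of the calls by density and 88.2% by library sums, beside 29.2% and 66.0% over all windows. By both scalings 16 windows were higher and 4 were lower, and 14 more were higher by library sums alone. Whether a window near the threshold was called thus depended on the scaling. Windows past 2-fold by density are described one by one below, with the ratio by each scaling where both libraries had reads. Higher and lower windows of each gene below are always among those with at least 20 reads. With 1 library per group a call means only that the fold was passed. Of the 18 higher windows, 9 were called in the lactate list alone and so were picked partly for being high there, and 7 of the 10 lower windows were called in the ddH2O list alone. Binding per RNA molecule and the amount of the RNA were not tested apart.

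**Figure D2:**
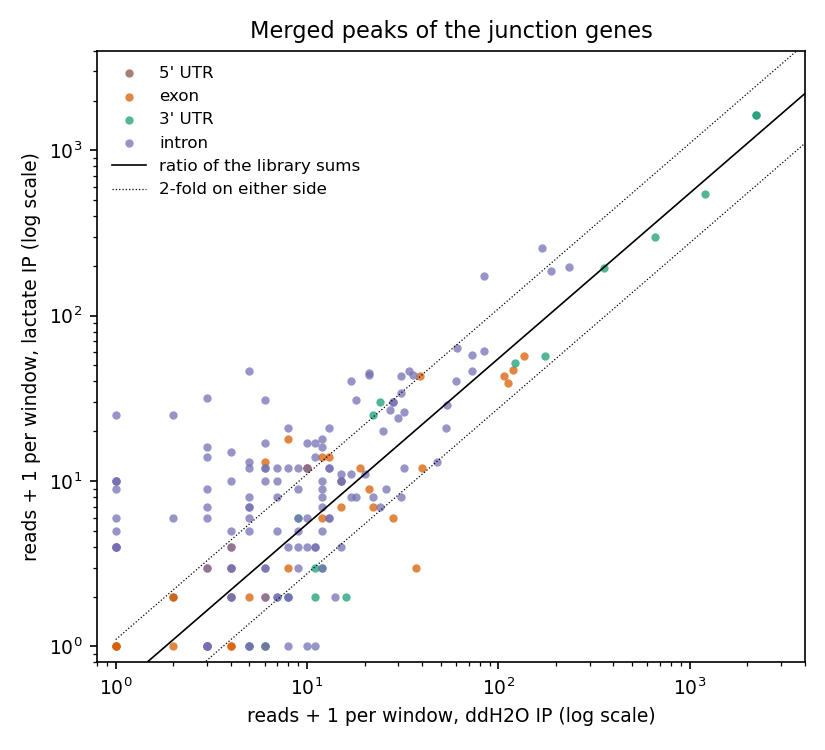
Reads per window of 2000 bases in the ddH2O IP (x axis) and the lactate IP (y axis) for the 186 merged peaks of the junction genes, with 1 read added and both axes on a log scale, coloured by region. The solid line marks the ratio of the library sums and the dotted lines 2-fold on either side; the densest windows, in 3' UTRs, lie close to the solid line, and most of the points far above it are intron windows.

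The classical cadherins were nearly free of peaks. CDH1 (ENSG00000039068), which encodes E-cadherin of epithelial cells, had 1 intron peak with ddH2O, at chr16:68752928-68753127, with a fold of 1.82, a q-value of 1 and 0 reads with lactate against 4 with ddH2O in its window. CDH2 (ENSG00000170558), which encodes N-cadherin, had 1 exon peak with ddH2O at chr18:28013601-28013800, with a fold of 2.43 and a q-value of 0.816, and 0 against 3 reads. At these depths no difference between the groups was detectable in either gene. CDH2 covers 244 kb and CDH1 98.2 kb, so their merged peaks came to 0.409 and 1.02 per 100 kb, where the median protein-coding gene with a merged peak had 13.0.

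Among the catenins, CTNNB1 (ENSG00000168036), which encodes beta-catenin, carried its peaks in introns, with 6 of 6 lactate peaks and 4 of 5 ddH2O peaks there, although 1 of the lactate peaks lay 16.9 kb past the annotated end, in a window that ULK4 reaches into. Its window with the most reads, at chr3:41214501-41215392 in an intron, held 60 reads with lactate and 83 with ddH2O, or densities of 38.4 and 33.3. The log2 ratio was 0.20 by density and 0.40 by library sums, with an exact interval of the latter from -0.11 to 0.89, so the libraries did not differ beyond counting error. The highest fold over input was 7.06 with ddH2O, at chr3:41214006-41214332, and 4.79 with lactate, at chr3:41201373-41201572, both in introns. No window of CTNNB1 with at least 20 reads passed 2-fold by either scaling.

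CTNND1 (ENSG00000198561) encodes p120-catenin, which keeps cadherins at the cell surface, and its peaks lay mostly in exons, 2 of 2 with lactate and 4 of 5 with ddH2O. Its highest fold lay at its own start in both lists, in an exon, with 5.60 for lactate at chr11:57761676-57762031 and 5.46 for ddH2O at chr11:57761684-57762021. The window there held 11 and 9 reads, which gave a log2 ratio of 0.47 by density and 1.13 by library sums (exact interval -0.26 to 2.60). The window with the most reads lay in the 3' UTR at chr11:57818785-57819145, called with ddH2O alone, and held 51 reads with lactate and 121 with ddH2O (log2 ratio -0.54 and -0.37). No window of CTNND1 with at least 20 reads passed 2-fold by density. By library sums 2 exon windows, including that at the start, were higher. On the same span the annotation gave 12 lactate and 12 ddH2O peaks to an overlapping protein-coding gene without a symbol (ENSG00000288534) on the same strand, 8 and 9 of them in introns. These were not counted for CTNND1, and reads of both genes cannot be told apart there.

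CTNNA1 (ENSG00000044115), the gene of alpha-catenin that links the cadherin complex to actin, had 44 merged peaks, the most of the 10 genes. Of its peaks 19 of 19 with lactate and 29 of 33 with ddH2O were intronic, 3 of the latter 24.1 to 40.9 kb before the annotated start. The densest window lay in the 3' UTR near the end of the gene, at chr5:138934334-138934685, with 299 reads with lactate and 658 with ddH2O, which are densities of 220 and 224. Its log2 ratio was -0.02 by density and -0.27 by library sums (exact interval -0.48 to -0.08). Both windows lower with lactate lay in an intron less than 5 kb from the start and share reads. They held 12 against 47 reads at chr5:138756777-138757569 (log2 ratio -1.47 by density and -1.02 by library sums) and 7 against 30 at chr5:138758078-138758277 (-1.66 and -1.09). The first of these also had the highest ddH2O fold of the gene, 9.86. Further into the gene, 2 intron windows were higher with lactate. They were chr5:138851636-138852097, with 16 against 5 reads (log2 ratio 1.69 and 2.37), and chr5:138829834-138830269, with 20 against 12 (1.00 and 1.55). Library sums added 2 higher intron windows nearer the start, which overlap and share reads. The highest lactate fold, 8.41, at chr5:138794821-138795224, lay inside 1 of these.

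Promoter sequences from RefSeq on GRCh38.p14 were held for 8 of the 10 genes, without CDH1 and CTNND1. CTNNA1 was the gene among these with a called peak inside a promoter window, a ddH2O peak at chr5:138753427-138753626 in the 5' UTR with a fold of 2.43 and a q-value of 0.816. The 30 bases around the annotated start beside it, chr5:138753410-138753439 on the plus strand, are shown with the transcribed bases in capitals.
CTNNA1 start: ggggcggcccatttcCTCCTCCTAGCCGGA
The window around this peak held 0 reads in both IP libraries.

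The actin linkers held the densest windows. VCL (ENSG00000035403) encodes vinculin, which binds alpha-catenin under tension and strengthens its hold on actin. Its 3' UTR window at chr10:74119522-74120007 was called with ddH2O alone and held 545 reads with lactate and 1206 with ddH2O, with densities of 422 and 390. The direction there turned with the scaling, with a log2 ratio of 0.11 by density and -0.28 by library sums (exact interval -0.43 to -0.14). The gene AP3M1 reaches into this window. In VCL 4 windows, all in introns, were higher with lactate by density and none was lower. By library sums 11 were higher, of which 8 lay in introns, 2 had the label 3' UTR and 1 lay in an exon, and again none was lower. The 2 with the label 3' UTR overlap and share reads, and they lay 6.52 and 6.98 kb before the annotated end of the gene. At chr10:74059758-74060628 there were 45 reads with lactate and 4 with ddH2O, densities of 25.4 and 2.26, for a log2 ratio of 3.49 by density and 4.06 by library sums (exact interval 2.90 to 6.29). The neighbouring window at chr10:74059074-74059301, which shares reads with it, held 24 against 1 (log2 ratio 3.75 and 4.51, exact interval 2.83 to 10.81). At chr10:74047919-74048861, called in both lists, there were 30 against 5 reads (log2 ratio 2.63 and 3.23, exact interval 2.07 to 5.17). The window at chr10:74044932-74045227 passed narrowly, with 16 against 9 reads and a log2 ratio of 1.02 by density and 1.63 by library sums. The highest fold over input was in another intron peak in both lists, 15.6 with lactate at chr10:74020202-74020833 and 8.25 with ddH2O at chr10:74020367-74020875.

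ACTN1 (ENSG00000072110) and ACTN4 (ENSG00000130402) encode the alpha-actinins of non-muscle cells, which crosslink actin filaments. In ACTN1 the 3' UTR window at chr14:68874181-68875091 was called in both lists and held 194 reads with lactate and 357 with ddH2O. Its log2 ratio was 0.11 by density and -0.01 by library sums, with an exact interval from -0.28 to 0.24, so the libraries did not differ there beyond counting error. An exon window at chr14:68901199-68901902, called with lactate alone, held 17 against 7 reads (log2 ratio 1.40 and 2.03). The highest ACTN1 fold was 5.46 with ddH2O in an intron, at chr14:68896944-68897491, and 4.28 with lactate, shared by an exon peak at chr14:68887584-68888155 and an intron peak at chr14:68896970-68897290.

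ACTN4 had the densest windows of the 10 genes. By density its windows higher with lactate were the most, at 7, but by library sums it had 5, fewer than the 11 of VCL. Its 2 overlapping 3' UTR windows held nearly the same reads. The one at chr19:38730297-38730510 had 1632 reads with lactate and 2226 with ddH2O, densities of 1357 and 670. That gave a log2 ratio of 1.02 by density, just past 2-fold, but of 0.42 by library sums (exact interval 0.32 to 0.51), so this call rested on the scaling. It was 0.03 by median scaling and -0.48 by the full sums, so the direction did too. CAPN12, a neighbouring gene, reaches into it. The second, at chr19:38729720-38730139, had 1626 and 2221 reads (log2 ratio 1.02 and 0.41). The other 5 higher windows were intronic and passed 2-fold by both scalings. At chr19:38655050-38655249 the reads were 173 with lactate and 83 with ddH2O (log2 ratio 1.84 and 1.91, exact interval 1.54 to 2.32), and at chr19:38653892-38654648 they were 256 and 169 (1.52 and 1.46, exact interval 1.18 to 1.75). Both lie within 10 kb of the start and share reads. Deeper in the gene, chr19:38670508-38670962 held 31 against 2 reads (log2 ratio 3.60 and 4.28, exact interval 2.84 to 7.93), chr19:38698979-38699824 held 39 against 16 (1.66 and 2.1) and chr19:38691041-38691410 held 20 against 7 (1.64 and 2.26). A single ACTN4 window was lower with lactate, at chr19:38651467-38651666, with 11 against 31 reads (log2 ratio -1.06 by density, -0.55 by library sums). The windows with the most reads were not those most enriched over input. The 3' UTR peaks of ACTN4 had folds of 1.67 with lactate and of up to 2.06 with ddH2O, while intron peaks reached 23.2 with lactate, at chr19:38667024-38668819, and 24.7 with ddH2O, at chr19:38652322-38653516.

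TJP1 (ENSG00000104067) encodes ZO-1, a scaffold of tight junctions that also binds alpha-catenin as junctions form. It had exon peaks in both lists, 5 with lactate and 10 with ddH2O, and no 3' UTR peak. The highest fold of all 10 genes was a ddH2O exon peak of TJP1 at chr15:29766218-29766680, at 29.7, where the lactate fold was 6.86. That window held 11 reads with lactate and 39 with ddH2O (log2 ratio -1.36 by density and -0.87 by library sums, exact interval -2.08 to 0.03). The window of the gene with the most reads, also in an exon, at chr15:29773059-29773525, held 46 and 119 (log2 ratio -0.67 and -0.49, exact interval -1.03 to -0.01). The lowest ratio was in an exon at chr15:29720182-29720723, where 2 reads with lactate faced 36 with ddH2O, densities of 1.61 and 17.3 (log2 ratio -3.42 by density and -2.76 by library sums, exact interval -6.41 to -1.35). The remaining windows lower with lactate passed by density alone, an exon window at chr15:29718830-29719096 with 6 against 21 reads (log2 ratio -1.41 and -0.79), which overlaps the window just described, and an intron window at chr15:29793994-29794640 with 8 against 25 (-1.24 and -0.67). In the opposite direction, an intron window at chr15:29818713-29819193 held 24 reads with lactate and 0 with ddH2O. With the 0 set to a floor of 3 reads, this is 14.5-fold higher after library-sum scaling. The exact interval of its log2 ratio by library sums began at 3.45. A pair of overlapping intron windows, the first at chr15:29749136-29749712, held 44 and 43 reads with lactate and 20 each with ddH2O (log2 ratio 1.56 and 1.53 by density, 1.96 and 1.93 by library sums). Library sums added 1 higher intron window. The second of the pair, chr15:29748547-29748952, carried the highest lactate fold of the gene, 9.93.

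IQGAP1 (ENSG00000140575) encodes a scaffold that binds Rac1, Cdc42, actin, E-cadherin and beta-catenin. Its window with the most reads, at chr15:90492383-90492843 with the label 3' UTR but 9.66 kb before the annotated end of the gene, held 56 reads with lactate and 174 with ddH2O. The densities were 36.9 and 67.5, for a log2 ratio of -0.87 by density and -0.76 by library sums (exact interval -1.23 to -0.33). An exon window at chr15:90472932-90473169 was lower with lactate by both scalings, with 5 against 27 reads (log2 ratio -1.97 and -1.36, exact interval -3.30 to -0.17). Overlapping intron windows beside each other at chr15:90469537-90469839 and chr15:90469062-90469391 held 6 against 23 and 7 against 21 reads, and passed 2-fold by density alone (log2 ratio -1.53 and -1.20 by density, -0.91 and -0.60 by library sums). The single IQGAP1 window higher with lactate by density was intronic, at chr15:90418592-90419126, with 30 against 17 reads (log2 ratio 1.18 and 1.65, exact interval 0.78 to 2.63). Library sums added 1 in an intron and 1 in an exon. The highest fold over input was in an exon in both lists, 11.5 with lactate at chr15:90474431-90474784 and 10.3 with ddH2O at chr15:90494524-90494733.

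**Figure D3:**
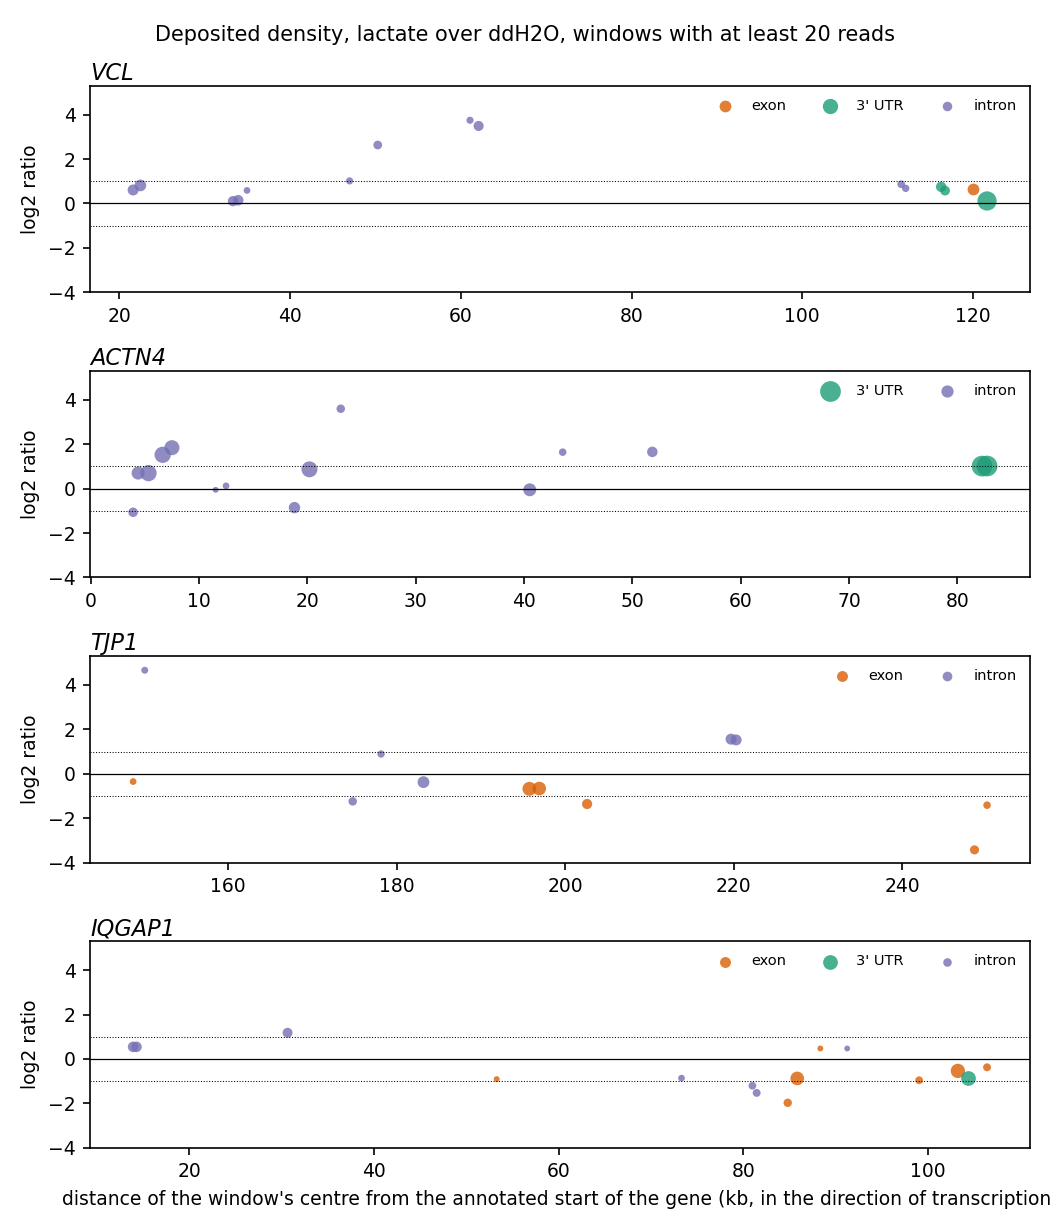
Log2 ratio of the deposited densities, lactate over ddH2O, for each window of VCL, ACTN4, TJP1 and IQGAP1 with at least 20 reads, by distance from the annotated start in the direction of transcription. Point area grows with the summed reads, colours give the region and dotted lines mark 2-fold; exon windows of TJP1 and most of those of IQGAP1 lie below 0, and the intron windows of VCL lie above 0, in the densities.

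Most calls were intronic, as were most of the windows. Of the 82 windows of the junction genes with at least 20 reads 55 were intronic, or 67.1%, where the share was 47.0% over protein-coding genes. Of the 18 windows higher with lactate by density 15 were intronic, or 83.3%, close to the 83.5% of the higher windows over protein-coding genes. By library sums 23 of the 30 were, or 76.7% beside 78.0%. Of the 10 lower windows 6 lay in introns and 4 in exons, where 44.3% over protein-coding genes were intronic. Among intron windows alone, 27.3% of those of the junction genes were higher by density, beside 13.0% over protein-coding genes. To compare regions free of any scaling between the libraries, reads were summed over windows called in both lists that do not overlap each other, and the lactate to ddH2O ratio of introns was divided by that of exons and UTRs within each gene, a comparison chosen after the values were seen. In TJP1 the intron windows held 77 reads with lactate and 67 with ddH2O and the exon windows 66 and 177, a ratio of 3.07 (exact interval 1.95 to 4.86). In IQGAP1 the reads were 70 and 52 in introns and 122 and 326 in exons and the 3' UTR, a ratio of 3.59 (2.33 to 5.57). ACTN4 stood nearer to 1, at 1.25 (1.08 to 1.44), with 476 and 520 reads in introns and 1626 and 2221 in the 3' UTR. VCL gave 1.13 (0.582 to 2.18) and ACTN1 0.920 (0.437 to 1.86), which were within counting error of 1. For VCL the side of exons and UTRs was 1 window of 29 and 23 reads. Its label was 3' UTR, but it lay 6.98 kb before the annotated end of the gene. The other members had no such windows of both kinds. The windows taken changed these values. Over all non-overlapping windows VCL gave 4.61 and IQGAP1 2.14, but those sums hold windows called in a single list, picked partly for being high there, so they are no measure of a difference between regions. In VCL they raised the intron reads from 124 and 87 to 259 and 121 and brought in the 3' UTR window called with ddH2O alone. The same direction was common in the series. Among 1632 protein-coding genes with at least 20 reads in both kinds of window, called in both lists and not overlapping, 81.5% had the higher ratio in introns, with a median log2 difference of 0.62.

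Shares of reads were taken over the same windows. Introns held 31.5% of the 3007 lactate reads of the 10 genes (Wilson interval 29.8 to 33.1) and 23.4% of the 4081 ddH2O reads (22.2 to 24.7). Over protein-coding genes the intron share was also larger with lactate, at 18.5% beside 12.6%. The 3' UTRs of the 10 genes held 63.4% with lactate (61.6 to 65.1) and 68.0% with ddH2O (66.6 to 69.4), beside 43.5% and 44.0%. ACTN4 gave most of these reads. Without it the 3' UTR share was 30.8% with lactate (27.9 to 33.9), below that over protein-coding genes. With ddH2O it was 41.3% (38.7 to 44.0), within counting error of that over protein-coding genes. Introns then held 51.9% of 905 lactate reads (48.7 to 55.2) and 32.5% of 1340 ddH2O reads (30.1 to 35.1). These shares leave out the 3' UTR windows with the most reads of VCL (545 with lactate and 1206 with ddH2O), CTNNA1 (299 and 658) and CTNND1 (51 and 121). Those windows were called with ddH2O alone, so the shares do not describe all 3' UTR reads of these genes.

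Whole-gene sums moved less than single windows. These sums include windows called in a single list, which were picked partly for being high there. Over every window ACTN4 had 4356 reads with lactate and 5434 with ddH2O, a log2 ratio of 0.54 by library sums. Counted once, over 15 windows and 30 kb, its mean window held 157 reads with lactate and 192 with ddH2O, for a log2 ratio of 0.58 (exact interval 0.50 to 0.65), and the summed densities gave 0.99. VCL had 1036 and 1549 reads over every window, a log2 ratio of 0.28 that was 0.15 with each read counted once (0.03 to 0.28) and 0.35 by density. CTNNB1 had 183 and 248 reads and a log2 ratio of 0.43, or 0.44 with each read counted once (0.02 to 0.85) and 0.13 by density. For CTNND1, CTNNA1, ACTN1, TJP1 and IQGAP1 the interval with each read counted once included 0. Of these, CTNND1 with 89 and 160 reads, CTNNA1 with 647 and 1103, ACTN1 with 259 and 457 and TJP1 with 333 and 519 had log2 ratios between 0.02 and 0.22 over every window and below 0 by density. CTNND1 and CTNNA1 were also below 0 by library sums with each read counted once, at -0.10 and -0.03, so their direction turned with the windows taken as well as with the scaling. IQGAP1, with 347 and 709 reads, was below 0 by library sums, at -0.17, and by density, at -0.49. By the full sums all 10 genes were below 0, ACTN4 at -0.35. The windows taken mattered here too. Over non-overlapping windows called in both lists CTNND1 held 24 and 21 reads, CTNNA1 117 and 111 and CTNNB1 68 and 91. VCL held 124 and 87 in introns and 29 and 23 in the window with the label 3' UTR. In these windows VCL, CTNND1 and CTNNA1 had more reads with lactate, and so lay above 0 by library sums. CTNNB1, ACTN1, ACTN4, TJP1 and IQGAP1 had fewer reads with lactate there. Fewer reads alone do not place a gene below 0, since an equal share of the library corresponds to 1.82 times more reads with ddH2O. The direction of these genes by library sums in these windows is not given here.

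**Figure D4:**
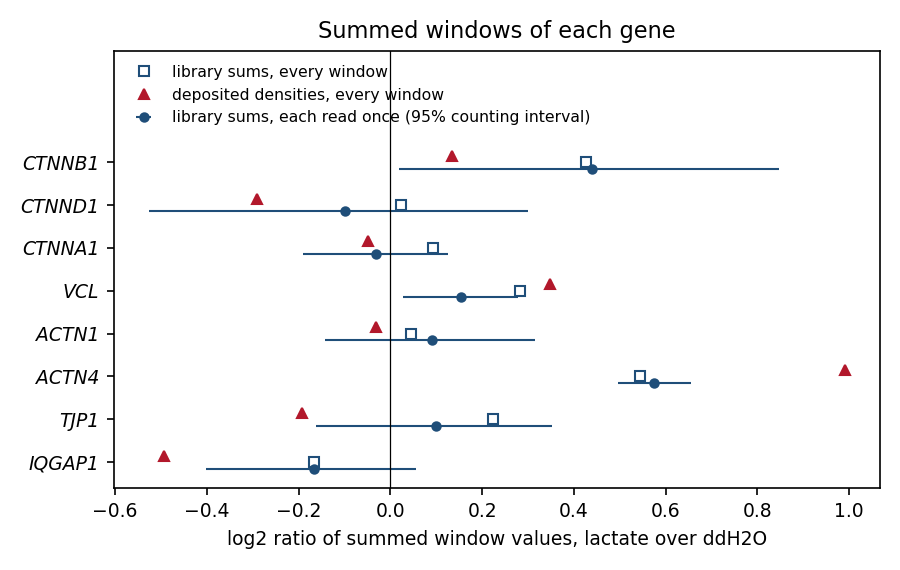
Log2 ratio of the summed window values of each gene, lactate over ddH2O, by library sums over every window (squares), by library sums with each read counted once (circles, bars are 95% exact counting intervals) and by deposited densities (triangles). CDH1 and CDH2, with at most 4 reads, are left out; ACTN4 lies furthest to the right in all 3, from 0.54 to 0.99, and the triangles of CTNND1, CTNNA1, ACTN1 and TJP1 lie below 0.

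Other junction genes were read from 7 lists with 70 genes, 61 of which had a merged peak. Of their 333 windows with at least 20 reads, 33 were higher with lactate by density, or 9.91%, and 68 were lower, or 20.4%, beside 7.65% and 18.6% over all windows. By library sums 67 were higher, or 20.1%, and 39 lower, or 11.7%, beside 17% and 8.77% over all windows. The balance turned with the scaling, as it did over all windows. These shares of all windows also stand beside the counts of each list below. For these lists each pair of log2 ratios is by density first and by library sums second. Of the 19 windows named here for a high or low ratio, 16 were called only in the list where they are high and so were picked partly for that, and 3 were called in both lists. Of the other classical cadherins 3 of 5 genes had a merged peak and none had a window with 20 reads, as for CDH1 and CDH2. The kinases and phosphatases of the cadherin-catenin complex had the most higher windows, 20 of 107, with 17 lower, and by library sums 34 and 11. Receptor-type phosphatases stood at both ends of that list. PTPRM held 28 reads with lactate and 6 with ddH2O in an intron window (log2 ratio 2.32 and 2.91), and PTPRJ held 24 and 5 (2.30 and 2.92). PTPRK held 2 and 22 (-2.80 and -2.08) and, in another intron window, 2 and 20 (-2.68 and -1.94). Summed over its windows, the receptor EGFR held the most reads of the list, 1142 and 2263 (-0.04 and -0.12).

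Among genes of actin assembly at junctions 6 of 102 windows were higher and 23 lower by density. By library sums 16 were higher and 12 lower, where 17% and 8.77% of all windows were. The 3' UTR windows of VEZT, an adherens junction membrane protein, and DIAPH1, a formin that elongates actin, were at opposite ends. They held 18 against 2 reads (log2 ratio 2.78 and 3.53) and 0 against 24. With the 0 set to the floor of 3 reads, the DIAPH1 window was 4.40-fold lower with lactate by library sums. The exact interval of its log2 ratio by library sums ended at -1.73. WASF2, an activator of branched actin, had 24 against 4 reads in an intron (2.54 and 3.18), and LIMD1 had 1 against 21 in an intron (-3.37 and -2.6). WASF2 also had the most reads over its windows, 1084 and 1910 (0.14 and 0.05). In the other armadillo and alpha-catenin family 3 of 43 windows were higher and 11 lower by density, and 8 and 7 by library sums. PKP4, a relative of p120-catenin, held 17 against 3 reads in 1 intron window (2.32 and 3.03). Another held 0 against 31, which is 5.68-fold lower by library sums with the same floor of 3 reads. The exact interval of its log2 ratio by library sums ended at -2.12. The PKP4 window beside it held 1 against 32 (-3.91 and -3.18). A 3' UTR window of CTNNBIP1, an inhibitor of beta-catenin, held 31 against 17 (1.23 and 1.69). The most reads over all windows were again those of PKP4, 636 and 1294 (-0.46 and -0.16).

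For nectins and afadin the counts were 3 higher and 9 lower of 32 by density, and 4 and 6 by library sums. AFDN, the gene of afadin, held 18 against 2 reads in an intron (2.78 and 3.53). PARD3, a polarity protein, held 26 against 13 (1.30 and 1.81) and 2 against 35 (-3.39 and -2.72) in intron windows, and the 3' UTR of NECTIN1 held 3 against 20 (-2.23 and -1.53). PARD3 held the most reads over its windows, 472 and 780 (-0.43 and 0.14), with a direction that turned with the scaling. Of the beta-catenin destruction and transcription genes 1 of 44 windows was higher and 8 lower by density. By library sums 5 were higher and 3 lower, where 17% and 8.77% of all windows were. The higher window by density was in an intron of the transcription factor TCF7L2, with 18 against 9 reads (1.19 and 1.79). The lower windows were led by an intron window of BTRC, the ubiquitin ligase subunit that recognises beta-catenin, with 2 against 25 (-2.96 and -2.25), and another of TCF7L2 with 10 against 44 (-1.65 and -1.17). CSNK1A1, a kinase of the destruction complex, held the most reads over its windows, 1033 and 1823 (0.26 and 0.04). The zonula occludens partners had 5 windows with 20 reads and no call by either scaling, F11R holding the most reads over its windows, 185 and 392 (-0.35 and -0.22).

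The labelled cell type was set against marker genes. All 5 ductal genes had a merged peak, with 4665 reads with lactate and 12893 with ddH2O summed over their windows. Nearly all of these lay on KRT18, with 2737 and 8085, and on KRT8, with 1819 and 4520. KRT19 held 92 and 248 reads and KRT7 16 and 37, while EPCAM had no lactate peak and held 1 and 3. Of 4 fibroblast genes 1 had a peak, COL1A1 with 47 and 50 reads, more than KRT7. Of 3 leukocyte genes 1 did, PTPRC with 0 and 3 reads, about as few as EPCAM. None of the 3 endothelial and 3 acinar genes had one. These are IP reads and not RNA levels.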

How the data were processed

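The submitters' processing notes name fastp 0.20.1, HISAT2 2.1.0, MACS2 2.2.7.1, bedtools 2.29.2, HOMER 4.11.1 and DiffBind, with GRCh38, and give no role for each. The authors called peaks per library against its input and deposited each peak's fold over input (a ratio) and q-value. They also deposited MAnorm's normalized signal, a read density, of each IP library per merged peak. The deposited log2 ratio and P-value of the authors' own comparison were not used. Members and lists were chosen with earlier results of these data known.

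Merged peaks were joined to called peaks by an overlap of at least 1 base and took the region of the called peak that overlapped them furthest. A density was taken as 1 plus the reads, per kb, and MAnorm's straight line was taken off, which gave whole reads within 0.05 in all but 2 of 116484 windows. A window was called at a fold over 2 with at least 20 reads over both libraries. Library-sum scaling added 1 read to each window and used the sums outside MT-RNR2 and MALAT1. Median scaling set the median log2 ratio of windows called in both lists, those on these genes left out, to 0, and the full sums kept every window. Intervals are Wilson for shares and exact (Clopper-Pearson) for ratios, the latter without the added read, at the 95% level. No molecular identifiers were used, so intervals cover counting error only. For each member the text names the window with the most reads, the highest fold per IP list and each called window. From the other lists it names the 2 most extreme windows past 2-fold in each direction by density and the gene with the most reads summed over its windows. A further list is not reported here. Other values were chosen after they were seen. The recovery of reads was also tried on simulated data, for which no value is given here. Depth of the input libraries is unknown. Gene spans and promoters came from RefSeq, GRCh38.p14. Tables were handled in pandas 2.3.3 and numpy 2.4.6, intervals in scipy 1.17.1 and plots in matplotlib 3.10.9, under Python 3.11.15.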

Additional observations from a re-analysis of the deposited data

How the results depend on the processing

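No paired analysis was possible because a single IP library stands for each group. Several peak counts moved by over 1.5 times under stricter thresholds. With a q-value below 0.05, intron peaks numbered 39 with lactate and 37 with ddH2O, and exon peaks 19 with ddH2O. Lactate exon peaks then numbered 12, and 3' UTR peaks 5 with lactate and 12 with ddH2O, all within 1.5 times. With a fold of at least 4, the lactate list kept 9 exon, 2 3' UTR and 38 intron peaks and the ddH2O list 17, 4 and 30. Taking every peak on a gene span whatever its symbol gave 11 lactate 3' UTR peaks, of which 4 were those of the gene without a symbol that overlaps CTNND1 and 2 those of LRRTM2 on the CTNNA1 span.

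The 18 windows higher and 10 lower with lactate became 30 and 4 by library sums, 40 and 54 without a read minimum, 7 and 2 with at least 50 reads, 5 and 1 at a fold over 4, and 31 and 19 at a fold over 1.5. Alternatives added after seeing the data gave 7 and 2 among windows called in both lists, 5 lower with each read counted once, and 12 and 23 by the sums of all windows, MT-RNR2 and MALAT1 included. An overlap of 50% gave 18 and 10 again. Median scaling gave the same counts from partly other windows, 16 of the 18 and 8 of the 10 being those called by density. Members with a summed log2 ratio above 0 numbered 7 by library sums, 5 with each read counted once, 3 by densities and 0 by the sums of all windows. The median over members of the highest fold was 9.17 with lactate, over 8 genes, and 7.65 with ddH2O, over 10. It was 3.98 and 3.03 when the median fold of each member was used. CDH1 and CDH2 enter the ddH2O medians alone, so the medians of the 2 groups are not over the same genes. The cause of the differences between scalings was not tested. In 17 of 45 comparisons of a summary with an alternative the value stayed within 1.5 times. Windows under 20 reads, 104 of 186, carry too few reads for a fold.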

Other observations

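Some peaks with a very small q-value had few reads in their window. A TJP1 exon peak at chr15:29800468-29800887 had a fold of 9.68 and a q-value of 6.06e-46 with ddH2O, yet its window held 0 reads with lactate and 5 with ddH2O. A second TJP1 exon peak, at chr15:29821835-29822201, had a fold of 8.25 and a q-value of 1.54e-24 with ddH2O and 1 and 5 reads. The lactate peaks at both places had folds of 4.35 and 4.17 and q-values of 6.97e-08 and 1.54e-04, with 0 and 1 lactate reads. Their q-values lie above the 1e-10 used next, so they are not in the counts that follow. Of the ddH2O peaks with a q-value below 1e-10, 2 of the 22 on junction genes and 463 of 12638 over all genes had fewer than 10 ddH2O reads in the window, and with lactate 0 of 13 and 139 of 4874 had fewer than 10 lactate reads. The cause was not tested.

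Many folds are tied. A fold shared exactly by at least 500 peaks of the same list was carried by 49 of the 97 lactate peaks and 89 of the 142 ddH2O peaks of the junction genes, and by 59.1% and 65.0% of all peaks. The value 1.82 alone was carried by 19 of the ddH2O peaks.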
